A study of Mus musculus with 2 samples.

Results

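Transcripts of the regenerating islet-derived (Reg) family were examined in RNA sequencing of tuft cells sorted from mouse small intestine. The family was taken by gene symbol as Reg1, Reg3a, Reg3b, Reg3g and Reg4, 5 of the 17134 genes in the deposited table, and all 5 passed the filter on low values. The other Reg genes in the table, Reg2 and Reg3d, were almost absent. The sort kept cells from untreated (naïve) mice that carried EpCAM, found on epithelial cells, together with Siglec-F, a surface lectin of gut tuft cells. One library, called WT here, is labelled Spib+Villin-cre. The other, called Spib_KO, is labelled Spibfl/flVillin-cre and comes from mice with floxed alleles of Spib, which encodes the ETS family transcription factor Spi-B. The Villin promoter drives Cre throughout the intestinal epithelium, so in Spib_KO the gene is deleted in epithelial cells at large and not in tuft cells alone, and both libraries come from mice with the Cre transgene. The labels give no age, strain or number of mice.

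Reg proteins are small secreted proteins built around a C-type lectin fold. Reg3b and Reg3g are made by enterocytes and Paneth cells, bind the surface of bacteria and help to keep the gut microbiota away from the epithelium. Their genes are classic targets of interleukin-22 acting through STAT3, and of microbial signals acting through Toll-like receptors and MyD88. Reg1 was first described in regenerating pancreatic islets and is also made in the intestine, and Reg4 marks secretory cells of the crypt, among them goblet-like and enteroendocrine cells. Tuft cells are rare chemosensory epithelial cells that start type 2 immunity to parasites.

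The 5 Reg genes did not move as a block. Reg3b and Reg3g, which were among the most abundant transcripts of the WT library, were lower in Spib_KO by more than 9-fold, and the much less abundant Reg4 was 7.35-fold lower. Reg1 and Reg3a kept 66.4% and 63.0% of their WT level. Each genotype has 1 library, so there is no test and no p-value, and an effect of genotype cannot be told apart from any difference between the mice, sorts or libraries. A rule of size was used instead: a gene was called lower or higher if the 95% counting interval of its log2 ratio lay at least 1 log2 unit, a 2-fold difference, from 0. Of the 5 members 3 were called lower and 0 higher. Over all 10707 genes that passed the filter, 2.18% were called lower and 2.33% higher. The median log2 ratio of the 5 members was -2.88, against 0.01 over all those genes.

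**Figure D1:**
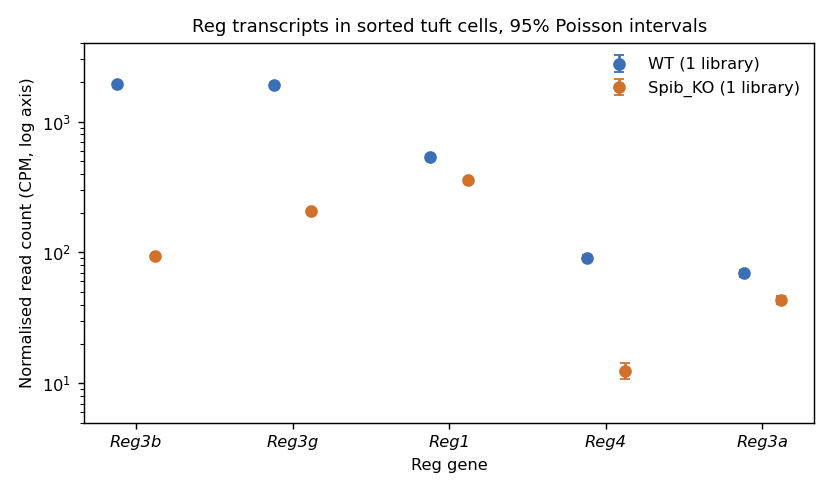
Normalised read counts (CPM, logarithmic axis) of the 5 Reg genes in the WT and Spib_KO libraries, 1 library each, with 95% Poisson intervals that cover counting error only and are mostly smaller than the points. Reg3b and Reg3g sit at 1939 and 1905 in WT and at 93.4 and 208 in Spib_KO, while the points of Reg1 and of Reg3a lie close together.

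The libraries held 17925448 (WT) and 17228684 (Spib_KO) reads assigned to genes. Spib itself was at 348 CPM (normalised read counts, scaled to a common library size) in WT and 2.80 CPM in Spib_KO. The genes behind the sort were close, with log2 ratios of Spib_KO over WT of -0.06 for Epcam and 0.14 for Siglecf. None of 12 tuft cell markers was called, and their median log2 ratio was 0.13.

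Reg3b encodes an antibacterial lectin also known as pancreatitis-associated protein. It had 34895 reads in WT and 1603 in Spib_KO, or 1939 CPM (95% Poisson interval 1919 to 1959) and 93.4 CPM (88.9 to 98.1). Its log2 ratio was -4.38, with a 95% counting interval from -4.45 to -4.30, so that 4.82% of the WT level was left. By deposited TPM (a level scaled for transcript length and depth) it was the 16th most abundant gene of the WT library, at 4543 TPM, and the 718th of the Spib_KO library, at 210 TPM. Of the 33 measured genes with a higher WT level in CPM, 0 had a log2 ratio as low.

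Reg3g encodes a lectin that kills Gram-positive bacteria. It had 34287 reads, 1905 CPM (1885 to 1925), in WT and 3569 reads, 208 CPM (201 to 215), in Spib_KO. The log2 ratio was -3.20 (-3.25 to -3.15), so that 10.9% of the WT level was left. In TPM it went from the 17th to the 343rd place, at 4351 and 457 TPM. Reg3b and Reg3g were therefore at nearly the same level in WT, with a TPM ratio of Reg3b to Reg3g of 1.04, and apart in Spib_KO, with a ratio of 0.46. Their log2 ratios differed by -1.18 (95% counting interval -1.27 to -1.09), with Reg3b further down.

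Reg1 and Reg3a stayed near each other. Reg1 had 9724 and 6161 reads, 540 CPM (530 to 551) in WT and 359 CPM (350 to 368) in Spib_KO, a log2 ratio of -0.59 (-0.64 to -0.54). Reg3a, a further lectin of the Reg3 group, had 1246 and 748 reads, 69.2 CPM (65.4 to 73.2) and 43.6 CPM (40.5 to 46.8), a log2 ratio of -0.67 (-0.80 to -0.54). Both were lower in Spib_KO by less than 2-fold and were not called. The TPM ratio of Reg1 to Reg3a was 8.74 in WT and 9.19 in Spib_KO, and the difference of their log2 ratios was 0.08 (-0.06 to 0.22), so counting error does not separate this pair. By contrast the TPM ratio of Reg3b to Reg3a, from the same Reg3 group, was 32.1 in WT and 2.44 in Spib_KO.

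Reg4 had 1645 reads in WT and 213 in Spib_KO, 91.4 CPM (87.0 to 95.9) and 12.4 CPM (10.8 to 14.2). Its log2 ratio was -2.88 (-3.09 to -2.67), near that of Reg3g although its WT level in TPM was 0.0336 of that of Reg3g. The difference from the log2 ratio of Reg3g was 0.32 (0.11 to 0.53). Reg4 and Reg3a were at about the same TPM in WT, 146 and 142, and at 19.2 and 86.1 TPM in Spib_KO.

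The order of the levels in WT was Reg3b, Reg3g, Reg1, Reg4 and Reg3a by TPM, and in Spib_KO it was Reg1, Reg3g, Reg3b, Reg3a and Reg4. Reg2 had 6 reads in WT and 0 in Spib_KO, where the 95% Poisson interval reaches up to 0.215 CPM. Reg3d had 0 reads in WT, where the interval reaches up to 0.205 CPM, and 7 in Spib_KO. The 95% counting interval of the log2 ratio had an upper bound of -0.17 for Reg2 and a lower bound of 0.60 for Reg3d. Neither gene passed the filter on low values and neither was called.

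**Figure D2:**
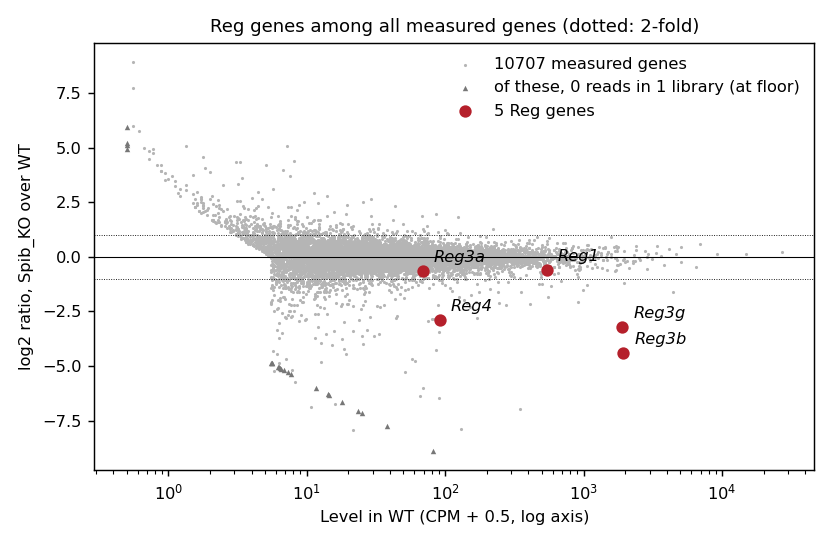
Log2 ratio of Spib_KO over WT against the WT level (CPM + 0.5, logarithmic axis) for the 10707 measured genes in grey, with genes at 0 reads in 1 library drawn as triangles at a floor of 3 reads, and the 5 Reg genes in red. Reg3b and Reg3g stand below the genes of like abundance, and Reg1 and Reg3a lie within the dotted 2-fold lines.

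Summed over the 5 genes, the reads fell from 81797 to 12294, or from 0.456% to 0.0714% of each library, a log2 ratio of -2.67 (-2.69 to -2.64). The make-up of the pool changed with it. Reg3b and Reg3g together held 84.6% of Reg reads in WT (95% Clopper-Pearson interval 84.3% to 84.8%) and 42.1% in Spib_KO (41.2% to 42.9%). Reg1 went from 11.9% (11.7% to 12.1%) to 50.1% (49.2% to 51.0%) and Reg3a from 1.52% to 6.08%, while Reg4 held 2.01% and 1.73%. Reg1 was thus the leading Reg transcript of the Spib_KO library although its own level was lower there.

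**Figure D3:**
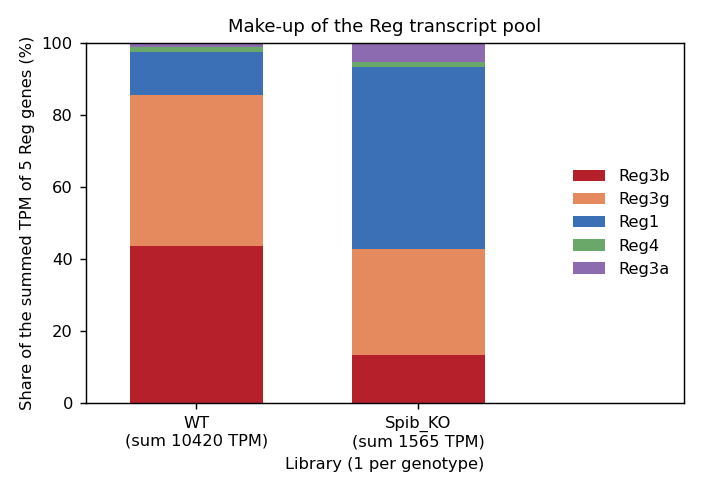
Share of each gene in the summed TPM of the 5 Reg genes (per cent) in the WT and Spib_KO libraries, 1 library each. Reg3b and Reg3g fill 85.4% of the WT bar and 42.7% of the Spib_KO bar, where Reg1 takes 50.6% of a sum that is down from 10420 to 1565 TPM.

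The Reg3 genes, Reg1 and Reg2 lie in 1 cluster on chromosome 6 and Reg4 lies alone on chromosome 3. In the RefSeq annotation of GRCm38.p6 the cluster runs from Reg3b (78370885 to 78373466) through Reg3d, Reg3a (78380709 to 78383839), Reg2 and Reg1 (78425983 to 78428668) to Reg3g (78466269 to 78468874), and Reg4 spans 98222138 to 98236748 on chromosome 3. The largest differences were at the ends of the cluster and the smaller ones inside it. Reg3b and Reg3a start 9.8 kb apart and had log2 ratios of -4.38 and -0.67, whereas Reg3b and Reg3g start 95.4 kb apart at opposite ends. No gene outside the family within 500 kb of the cluster was in the table. Near Reg4, at 71.8 kb, Notch2, a Notch receptor gene, had a log2 ratio of 0.19 (-0.04 to 0.42) and was not called. No other RefSeq gene overlaps any of the 5 members.

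**Figure D4:**
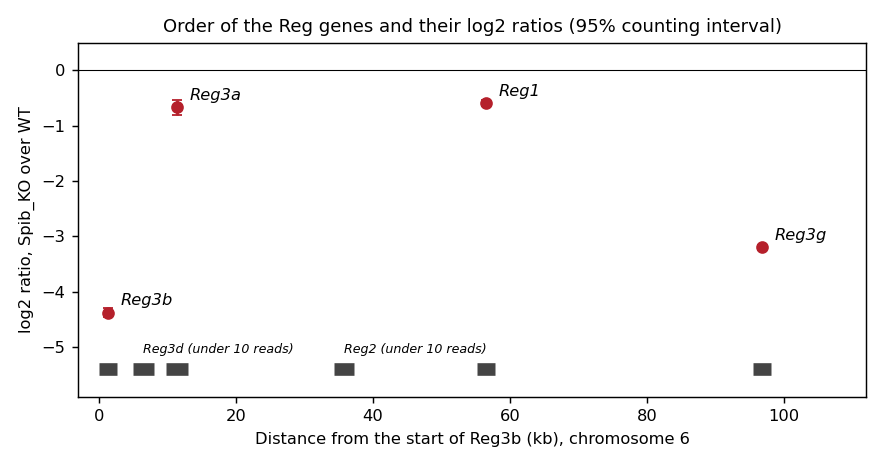
Log2 ratio of Spib_KO over WT with its 95% counting interval for the 4 members of the chromosome 6 cluster, placed by distance in kb from the start of Reg3b, with gene bodies as bars at the bottom. The low points of Reg3b and Reg3g are at the 2 ends, and Reg3a and Reg1 between them are above -1.

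The members are relatives, and reads could in principle be shared between them. Each has 6 exons, 5 of them coding. The coding sequences of Reg3b and Reg3g, of 528 and 525 bases, were 78.8% identical over 520 aligned bases, that of Reg3b was 76.7% identical to Reg3a, and Reg1 matched Reg3b at 71.1%. No run of 50 bases was common to the annotated transcripts of any pair of Reg genes, and the deposited counts of all 5 members were whole numbers.

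The stretches before the transcript starts are shown because Reg3b and Reg3g were both much lower while Reg3a and Reg1, from the same cluster, were not. Each is the 250 bases before the start of the RefSeq transcript (GRCm38.p6), read in the direction of the gene. They are chr6:78370635-78370884 (plus strand) for Reg3b, chr6:78468875-78469124 (minus) for Reg3g, chr6:78380459-78380708 (plus) for Reg3a, chr6:78425733-78425982 (plus) for Reg1 and chr3:98221906-98222155 (plus) for Reg4. The Reg4 stretch runs past 98222138, where the gene span given above begins, so its last bases lie inside that span. Capitals mark matches to TATAAA, the core of the TATA box, to TTCNNNGAA, the core recognised by STAT factors, and to GAGGAA, a core recognised by Spi-B and its relative PU.1, on either strand.
Reg3b: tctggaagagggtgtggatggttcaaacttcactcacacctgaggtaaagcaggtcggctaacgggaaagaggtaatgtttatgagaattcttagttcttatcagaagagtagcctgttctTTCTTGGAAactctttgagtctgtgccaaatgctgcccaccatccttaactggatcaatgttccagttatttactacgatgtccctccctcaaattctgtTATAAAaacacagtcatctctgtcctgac
Reg3g: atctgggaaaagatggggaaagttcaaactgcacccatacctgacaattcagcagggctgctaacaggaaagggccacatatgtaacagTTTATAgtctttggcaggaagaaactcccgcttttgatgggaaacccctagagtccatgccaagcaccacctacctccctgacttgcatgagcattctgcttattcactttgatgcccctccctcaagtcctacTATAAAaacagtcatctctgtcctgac
Reg3a: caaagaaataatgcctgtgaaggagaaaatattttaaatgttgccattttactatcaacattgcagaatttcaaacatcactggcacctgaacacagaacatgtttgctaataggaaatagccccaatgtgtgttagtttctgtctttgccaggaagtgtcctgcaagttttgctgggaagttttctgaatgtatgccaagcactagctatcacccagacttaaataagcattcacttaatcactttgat
Reg1: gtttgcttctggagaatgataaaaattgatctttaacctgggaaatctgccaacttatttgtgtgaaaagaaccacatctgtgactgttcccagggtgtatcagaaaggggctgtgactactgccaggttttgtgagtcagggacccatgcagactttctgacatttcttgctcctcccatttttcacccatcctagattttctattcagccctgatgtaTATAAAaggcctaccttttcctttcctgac
Reg4: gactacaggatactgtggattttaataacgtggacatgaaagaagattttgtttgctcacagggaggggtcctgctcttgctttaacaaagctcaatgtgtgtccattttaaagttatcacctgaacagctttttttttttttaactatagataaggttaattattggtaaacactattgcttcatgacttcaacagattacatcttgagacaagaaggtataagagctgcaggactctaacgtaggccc

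The Reg3b stretch holds TATAAA 29 bases before the start, Reg3g 27 and Reg1 30, while Reg3a and Reg4 have none in this window. Reg3g also holds it on the opposite strand, 161 bases before the start, and Reg1 on the opposite strand 36 to 41 bases after the start, outside the printed stretch. TTCNNNGAA was found in Reg3b alone among the 5, at 129 bases before the start, and GAGGAA in none of the 5, in a window that also takes in 50 bases after the start. Over 32851 RefSeq promoter windows of the same 300 bases, 13.6% held TATAAA, 8.30% TTCNNNGAA and 28.3% GAGGAA. A match is a description of letters and shows no binding. The last 20 bases before the start, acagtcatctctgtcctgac, are identical in Reg3b and Reg3g, and no other pair among the Reg genes shared a run of more than 12 bases. Over the aligned bases of the whole stretches, Reg3b and Reg3g were 71.8% identical (245 bases). Reg3a was 77.3% identical to Reg3b (194 bases) and 77.3% to Reg3g (198 bases). These shares leave out bases set against gaps, and fewer bases were aligned for the pairs with Reg3a. The shares therefore do not rank the pairs by likeness, and whether likeness goes with the log2 ratios was not tested. TTCNNNGAA, TATAAA and GAGGAA do not overlap one another in these windows.

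Signals known to switch on Reg3 genes were compared next. Of 12 genes for IL-22 and gp130 receptors and JAK-STAT3 signalling, 11 were measured, 2 were lower and 0 higher, with a median log2 ratio of -0.41. Socs3, a feedback inhibitor that STAT3 itself induces, was lower at 4.31 CPM against 19.4 CPM in WT (log2 ratio -2.17, interval -2.56 to -1.81). Il6st, which encodes the shared receptor chain gp130, was lower as well, at 46 reads against 150 (log2 ratio -1.63, interval -2.15 to -1.15). Stat3 stood at 138 CPM in WT and 73.7 CPM in Spib_KO (log2 ratio -0.90, upper bound -0.80) and was not called. Il22ra1, the specific chain of the IL-22 receptor, stood at 14.1 and 9.85 CPM (log2 ratio -0.51, interval -0.80 to -0.23). In all, 8 of the 11 had log2 ratios below 0. The other 3 were above it and not called: Cish, another STAT-induced feedback inhibitor (0.55, interval 0.22 to 0.90), the kinase gene Jak2 (0.52, 0.40 to 0.64) and the receptor gene Il11ra1 (0.55, 0.40 to 0.71). Stat3, Il22ra1, Cish, Jak2 and Il11ra1 were picked out after their values were seen.

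Other epithelial genes induced by IL-22 or STAT3 went both ways, with 2 lower and 2 higher among 6 measured of 13 and a median of 0.31. Nos2, which encodes a nitric oxide synthase of inflamed tissue, dropped out of the Spib_KO library. It had 92 WT reads against 0, at least 29.2-fold lower when set against a floor of 3 reads. Il18, an epithelial cytokine gene, was lower with a log2 ratio of -1.38 (-1.56 to -1.21). Sprr2a3, a small proline-rich protein gene, and Duoxa2, whose product helps dual oxidase to mature, were higher with log2 ratios of 2.95 (2.60 to 3.34) and 1.85 (1.53 to 2.18). Saa1, Saa3, S100a8 and S100a9, acute-phase and calprotectin genes, had at most 9 reads in either library. Lrg1 had 28 reads in WT against 0 in Spib_KO and did not pass the filter. Saa2 and Lcn2 were not in the table. Of 16 genes of Toll-like receptor, MyD88 and NOD2 signalling, 10 were measured, 0 were lower and 1 was higher, Tlr1, from 13 to 110 reads, and the median was -0.11. Among those that did not pass the filter, Tlr2 and Tlr4 had 22 and 10 reads in WT against 0 in Spib_KO. Tlr5, also below the filter, had 0 against 1. Extl3, which encodes a reported receptor of Reg proteins, stood at 46.6 and 49.3 CPM (log2 ratio 0.08, interval -0.06 to 0.22).

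The other soluble lectins were mostly at similar levels. Among the 6 measured ones 2 were lower and 0 higher (median log2 ratio -0.22). These were Zg16, a goblet cell lectin, and Itln1, intelectin of Paneth and goblet cells, with log2 ratios of -1.26 (-1.31 to -1.20) and -1.25 (-1.31 to -1.19). The 4 measured galectin genes ranged from -0.32 (Lgals3) to 0.35 (Lgals2) and were not called. Among 7 measured genes of other secreted defence proteins 2 were lower and 1 higher (median log2 ratio -0.45). Mptx2, a mucosal pentraxin gene, was lower with a log2 ratio of -4.77 (-5.30 to -4.32), as was the lysozyme gene Lyz1 with -1.84 (-1.90 to -1.78), while Mptx1 was higher with 1.64 (1.37 to 1.93). Of 9 measured transcription factor genes of crypt secretory cells, 1 was lower and 0 higher: Foxa3, with a log2 ratio of -1.59 (-1.99 to -1.22), and the median was -0.42.

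Markers of other cells moved between the libraries as well. In a sorted pool, fewer cells of a type and less RNA per cell cannot be told apart, and whether the Reg reads come from tuft cells or from other cells or their free RNA was not tested. Of 10 measured Paneth cell markers, 9 were lower and 0 higher (median log2 ratio -1.72), with a sum of 2696 CPM in WT and 979 CPM in Spib_KO. The remaining marker, Ang4, was not called and lay above 0 (log2 ratio 0.75, interval 0.63 to 0.87). Of 8 goblet cell markers 3 were lower and 0 higher, with a sum of 2232 and 1391 CPM. Of 9 enterocyte markers 0 were called and 6 had log2 ratios below 0, with a median of -0.43. Their sum was 14157 and 16121 CPM, but its direction rested on Fabp1, a fatty acid-binding protein gene at 6968 and 10611 CPM, and the other 8 summed to 7190 and 5509 CPM. Of 8 measured enteroendocrine markers 5 were lower and 1 higher (median log2 ratio -2.88), and Gcg and Tph1 had 0 reads in Spib_KO. Their list summed to 540 and 575 CPM, of which Sct, the secretin gene, made up 404 and 533 CPM, and the other 9 genes summed to 136 and 41.9 CPM. Of 5 crypt stem cell markers 0 were called. The part of these cells in the Reg values was not tested.

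The Paneth markers differed widely among themselves. Of the 10 measured, 4 were further down than Reg3b: the defensin genes Defa20 (1470 WT reads against 0, at least 467-fold lower), Defa21 (log2 ratio -6.37, interval -7.33 to -5.64) and Defa22 (-5.99, -6.79 to -5.36), and Mptx2. Others, such as Lyz1, Itln1 and Defa24 (log2 ratio -1.27), the most abundant of them, were less far down than Reg3g. T cell and intraepithelial lymphocyte markers summed to 53.4 CPM in WT and 5.77 CPM in Spib_KO, with 4 of 4 measured members lower. Of 2 measured B cell and myeloid markers 1 was lower, Lyz2, and the list summed to 21.3 and 6.94 CPM. Of 8 pancreatic acinar markers, a tissue rich in Reg1, only Clps and Cpa1 were in the table, and Cpa1 had 1 read in each library. Clps, the colipase gene, stood at 23.8 and 10.4 CPM (log2 ratio -1.19, interval -1.45 to -0.94).

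Genes that mark the position along the gut were also uneven. Of 4 measured ileal genes 2 were higher and 0 lower, with a list sum of 187 CPM in WT and 304 CPM in Spib_KO. Fabp6, the ileal bile acid-binding protein gene, was higher at 97.8 CPM against 19.1 CPM (log2 ratio 2.36, interval 2.19 to 2.53). Fgf15, a hormone gene of the ileum, had 105 reads in the Spib_KO library against 0, at least 36.7-fold higher. None of 5 measured duodenal and jejunal genes was called, and their median was 0.17. The part of gut region in the Reg values was not tested.

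**Figure D5:**
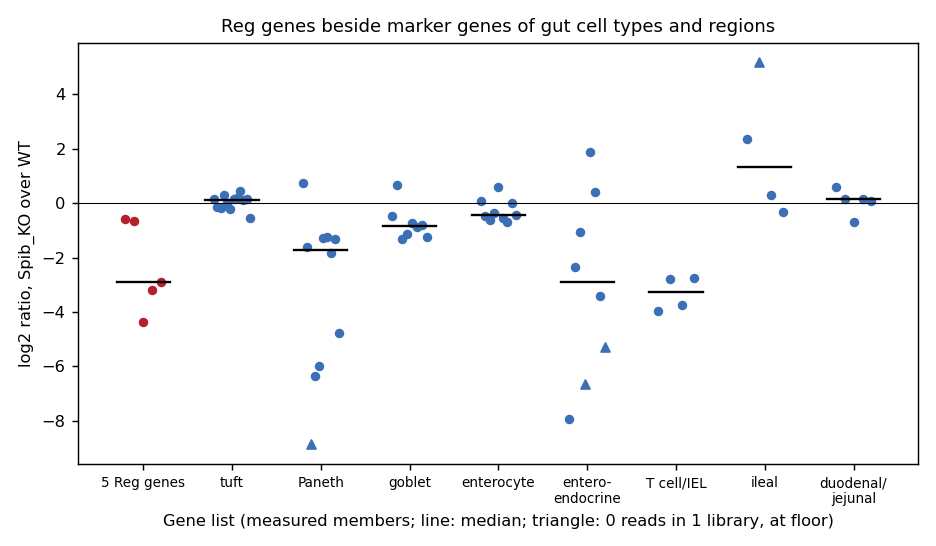
Log2 ratio of Spib_KO over WT for the 5 Reg genes (red) and the measured members of 8 lists of cell type and region markers (blue), with the median of each as a line and genes at 0 reads in 1 library as triangles at a floor of 3 reads. Tuft markers lie around 0, Paneth markers have a median of -1.72, and the Reg genes split into 2 above -1 and 3 between -2.88 and -4.38.

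Genes with a like pattern were sought by the distance between log2 levels (CPM + 0.5) over the 2 libraries, so the likeness rests on 2 values per gene. Reg genes, predicted genes and RIKEN clones were left out of the search, so likeness between Reg genes is not covered. Among the genes searched, none lay close to Reg3b or Reg3g. The nearest of them to both was Spink1, a trypsin inhibitor gene, at 907 and 217 CPM, with distances of 1.64 and 1.07 log2 units. Next came Lyz1 (1.95) and Itpr2 (2.14) for Reg3b, and Itpr2 (1.21) and Defa24 (1.37) for Reg3g. Itpr2 encodes an inositol trisphosphate receptor and Defa24 a Paneth cell defensin. Reg4 had near neighbours in Plekho2 (0.20), the defensin gene Defa36 (0.25) and Adgre5 (0.42). Reg1 lay nearest to Syne2 (0.05), Cdh1 (0.15) and Pnpla6 (0.17), and Reg3a to Unc5cl (0.02), Ankzf1 (0.05) and Nr1h3 (0.06). Of the 10707 measured genes, 1032 had a lower log2 ratio than Reg1 and 857 a lower one than Reg3a.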

How the data were processed

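Per the labels' protocols, RNA of sorted tuft cells was extracted with TRIzol and libraries were made by SMART-Seq II type cDNA amplification with a transposase. Such libraries are not stranded. HISAT and Bowtie2 2.2.3 were used with mm10 (GRCm38), per the submitters' processing notes. For the read counter and its annotation, nothing is given in the sources used here. The authors deposited expected counts, TPM and FPKM values for each gene. Expected counts were rounded (19.0% and 18.6% of values were not whole).

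Counts were scaled to CPM by TMM (edgeR 4.0.16, R 4.3.3). Log2 ratios of Spib_KO over WT used a prior of 0.5 reads. Their intervals are exact conditional binomial (Clopper-Pearson) intervals, those of CPM are exact Poisson intervals, and those of differences between log2 ratios are normal approximations. Amplified reads are not independent molecules, and no molecular identifiers are named, so intervals and floors (3 reads) cover counting error only. Genes with at least 5 CPM and 30 reads in either library counted as measured. DESeq2 1.42.0 size factors, other scalings, TPM and FPKM were alternatives. Other steps used Python 3.11.15, scipy 1.17.1 and Biopython 1.88. The code of the calling rule was run on simulated Poisson counts. These hold counting error only, so the run cannot show how the rule fares with differences between mice, sorts or libraries.

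Members, lists and rules were chosen with earlier results of these data known. Named genes were the Reg genes, Spib, Epcam and Siglecf, and the called genes of a list that were furthest from 0 (at most 4, or else its 2 most abundant). The 3 genes nearest to each member over both libraries were also named, without Reg genes, predicted genes and RIKEN clones. Other genes named with values (Stat3, Il22ra1, Cish, Jak2, Il11ra1, Sct, Saa1, Saa3, S100a8, S100a9, Lrg1, Tlr2, Tlr4, Tlr5, Ang4, Lgals2, Lgals3, Cpa1 and Notch2) were chosen after their values were seen. Marker sums without the most abundant gene of the list were likewise added after the data were seen. Promoters come from RefSeq (GRCm38.p6; 5 of 5 members matched) and transcripts from GENCODE vM21, aligned globally. That M21 annotation may not be the one the authors counted on.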

Additional observations from a re-analysis of the deposited data

How the results depend on the processing

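The same 3 members, Reg3b, Reg3g and Reg4, were called lower under every alternative run, and Reg1 and Reg3a under none. The other scalings on counts (upper quartile, total counts with and without the top 20 genes, DESeq2 size factors) moved log2 ratios by -0.012 to 0.007. Scaling on the tuft markers shifted them by -0.128, to -0.72 for Reg1, -4.50 for Reg3b and -3.32 for Reg3g. As log2(value + 1) differences, deposited TPM gave -0.64 for Reg1, -3.25 for Reg3g and -2.73 for the sum of the 5 genes, and FPKM gave -0.65, -3.25 and -2.74. These values lie at or beyond the counting interval and keep their sign; the cause was not tested. Over all genes, the main rule called 250 higher and 233 lower. Without the filter the counts were 595 and 716, and with a minimum of 20 CPM they were 101 and 106. These 2 settings admit another number of genes. By the point estimate, with the same filter but without the interval bound, 425 were called higher and 419 lower. TPM and FPKM calls used another rule. It filtered on the TPM or FPKM value and took point estimates of the log2(value + 1) difference, without the interval bound. FPKM called 165 higher under it, and the part of each of these changes was not tested. With TPM or FPKM under that rule, 1 gene of the JAK-STAT3 list and 0 of the Toll-like receptor list were called, against 2 and 1 under the main rule. For the acinar and ileal lists the counts were 1 and 1, against 0 and 2. No list median changed sign under the scalings, TPM or FPKM. No paired analysis was possible because each genotype has 1 library, and no library could be left out for the same reason. Reg2 and Reg3d did not pass the filter on low values.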
